A study of Mus musculus with 7 samples.

Results

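Transforming growth factor beta (TGF-beta) signalling was described here through 9 genes of the mouse retina: the ligand genes Tgfb1, Tgfb2 and Tgfb3, the receptor genes Tgfbr1 and Tgfbr2, the SMAD genes Smad3 and Smad7, and the target genes Ctgf and Postn. They were taken by symbol from the 54532 genes of the deposited count table, where each symbol had 1 row, and all 9 were among the 17078 genes with enough counts to be tested. Retinas had been sampled on day 28 from mice infused with angiotensin II (Ang II, a peptide hormone that raises blood pressure; 4 libraries) or with saline (3 libraries). The series text gives all mice as ApoE-/-, while the sample labels give the genotype of every library as WT. Apoe had 253 to 406 counts in the Ang II libraries and 150 to 304 in the saline libraries. Its level was 15.5 to 25.7 CPM (read counts relative to the scaled library size) in Ang II and 10.5 to 18.8 CPM in saline. That placed Apoe at percentile 49.4 in level among the genes tested, so it was not an abundant transcript in these libraries. These values do not settle the genotype, since a knockout allele can leave part of a transcript and no library of known genotype was compared. The labels give neither the age of the mice nor how many animals a library holds, so p-values measure the spread between these libraries, which may be technical.

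The TGF-beta proteins are secreted in a latent form, held by a propeptide and by latent TGF-beta binding proteins. They can be freed by thrombospondin or, for some isoforms, by integrins of the alpha-v family. The active ligand binds the type II receptor, which phosphorylates the type I receptor, which in turn phosphorylates SMAD2 and SMAD3 so that they enter the nucleus with SMAD4. SMAD7 is induced by the pathway and blocks the type I receptor, and connective tissue growth factor (encoded by Ctgf) and periostin (encoded by Postn) are matrix proteins whose genes the pathway can induce. Ang II is known to raise TGF-beta in heart and kidney, and TGF-beta2 is known as a main isoform at the back of the eye.

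The promoters of 3 members are shown because these genes stand at the ends of the results: Tgfb2 had the highest level per gene length, and Tgfb1 and Postn had the lowest levels and the largest fold changes. RefSeq promoter windows on GRCm38.p6 (250 bases before the gene start to 50 after) were matched for 6 of the 9 members (Tgfb1, Tgfb2, Tgfbr1, Tgfbr2, Smad3 and Postn). Capitals mark the SMAD box core (GTCT or AGAC), the TATA motif (TATAAA or TTTATA) and the GC box (GGGCGG or CCGCCC), searched on both strands, with overlapping matches counted separately.
Tgfb1, chr7:25686752-25687051, plus strand: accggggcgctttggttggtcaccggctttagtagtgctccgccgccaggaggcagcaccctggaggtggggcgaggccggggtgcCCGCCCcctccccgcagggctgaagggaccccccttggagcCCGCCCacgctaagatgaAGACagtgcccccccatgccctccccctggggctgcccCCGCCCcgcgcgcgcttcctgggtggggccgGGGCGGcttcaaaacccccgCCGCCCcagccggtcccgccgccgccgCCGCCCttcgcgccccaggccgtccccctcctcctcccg
Tgfb2, chr1:186705940-186706239, minus strand: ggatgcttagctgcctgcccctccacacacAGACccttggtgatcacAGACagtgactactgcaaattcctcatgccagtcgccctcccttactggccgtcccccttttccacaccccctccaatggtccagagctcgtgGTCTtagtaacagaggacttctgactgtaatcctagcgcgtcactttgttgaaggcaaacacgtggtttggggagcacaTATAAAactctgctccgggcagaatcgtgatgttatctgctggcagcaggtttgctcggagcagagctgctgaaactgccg
Postn, chr3:54360857-54361156, plus strand: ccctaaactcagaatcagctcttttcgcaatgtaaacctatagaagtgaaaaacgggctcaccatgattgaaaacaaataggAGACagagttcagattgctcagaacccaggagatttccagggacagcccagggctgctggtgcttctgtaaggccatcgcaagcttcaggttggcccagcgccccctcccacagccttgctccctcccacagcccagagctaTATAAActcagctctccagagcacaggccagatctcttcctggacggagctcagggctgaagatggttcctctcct
The Tgfb1 window was 77% G and C, against a median of 52.7% over all 32851 windows of this length, and held 6 GC boxes, 1 SMAD box core and no TATA motif. The Tgfb2 window held 3 SMAD box cores and 1 TATA motif, with 54.3% G and C, and the Postn window shown held 1 of each, with 53% G and C. RefSeq lists a second Postn window (chr3:54359017-54359316), farther from the gene start of the deposited table, which held 3 SMAD box cores and no TATA motif, with 40% G and C. Of all windows, 88% held a SMAD box core, 35.7% a GC box and 13.6% a TATA motif, so the SMAD core is found in most promoters. These matches describe letters and do not show that a factor binds.

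Library totals were 15374638 to 17563493 counts in Ang II and 14655431 to 16679829 in saline. Retinal identity was plain: 9 rod markers, with the transducin gene Gnat1 the largest, summed to 23337 to 27243 CPM (read counts relative to the scaled library size) in Ang II and 28697 to 30569 CPM in saline, without overlap. Some tissue markers moved with the groups. Of 14 pigment epithelium markers, the layer behind the photoreceptors, 12 lay higher in Ang II and 0 were undetected. Their summed level was 1479 to 1860 CPM in Ang II against 868 to 1379 CPM in saline, and Rlbp1, which Müller glia also express, was the largest of them. Rpe65, the retinoid isomerase gene that defines this layer, was at 152, 147, 204 and 107 CPM in Ang II replicates 1 to 4, against 19.8, 25.9 and 92.0 CPM in saline replicates 1 to 3. Gfap, a gene that glia raise after injury, reached 79.8 CPM in Ang II replicate 3, beside 6.84 to 9.60 CPM in the other 6 libraries. The same library stood apart in skeletal muscle markers, which summed to 198.5 CPM there and to 3.61 to 15.3 CPM in the others, with 5 of 5 tested markers higher in Ang II. Of 10 markers of astrocytes and reactive glia, 9 lay higher in Ang II, and their sum was 239 to 535 CPM in Ang II and 239 to 294 CPM in saline. Lens markers summed to 2133 CPM in Ang II replicate 2 and to 1.09 to 449 CPM elsewhere. Saline replicate 2 stood apart too, with the smallest total, 21260 genes detected against 24024 to 24846 in the other libraries, and the lowest limma-voom quality weight. Its level of Egr1, an immediate-early gene, was 367 CPM, against 93.5 and 29.3 CPM in saline replicates 1 and 3. In Ang II, Egr1 was at 13.8 to 23.7 CPM, so all 4 Ang II libraries lay below the saline range. In whole retina, fewer cells of a type and less RNA per cell cannot be told apart.

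The TGF-beta genes formed a transcript pool led by Tgfb2, with little Tgfb1. Per kilobase of gene length, the level over all 7 libraries was 12.6 ± 0.875 CPM per kb for Tgfb2, 8.71 ± 0.804 for Smad3, 6.53 ± 0.669 for Ctgf, 5.58 ± 0.477 for Tgfbr1, 5.10 ± 0.598 for Tgfb3 and 4.41 ± 0.596 for Smad7 (mean ± SD, n = 7). Tgfbr2 followed at 1.19 ± 0.161 CPM per kb, then Tgfb1 at 0.439 ± 0.156 and Postn at 0.223 ± 0.0562. Tgfb2 and Smad3 each stood clear of the next gene in every library, and so did Tgfbr2 of its neighbours on either side. From Ctgf to Smad7 each gene overlapped the next in its range over libraries, and so did Tgfb1 and Postn, so the order of neighbours within those runs is not settled. Ctgf, at 5.875 CPM per kb or more, stood narrowly clear of Tgfb3 (at most 5.853) and clear of Smad7 (at most 5.316).

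**Figure D1:**
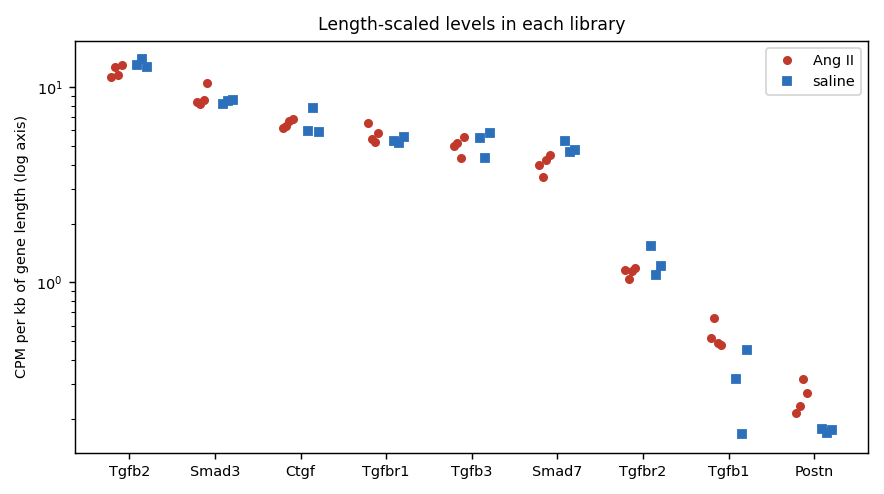
Levels of the 9 TGF-beta genes in CPM per kilobase of gene length (log axis), 1 circle per Ang II library and 1 square per saline library, ordered by the mean over 7 libraries. Tgfb2 is highest at 11.3 to 13.9 CPM per kb and Postn lowest at 0.169 to 0.320 CPM per kb.

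With edgeR's quasi-likelihood test, 0 of the 9 genes were called between Ang II and saline at an adjusted p under 0.05, beside 0% of the 17078 genes tested (0 genes). Among the 9, Tgfb1 and Postn lay above the whole saline range in all 4 Ang II libraries and Smad7 lay below it in all 4, while the other 6 overlapped. Groups without overlap were found in 5.91% of all genes tested, 3.18% higher and 2.73% lower, against 3 of 9 here. An unadjusted p under 0.05 was found for Tgfb1 and Smad7, 2 of 9, beside 4.62% of all genes. The 9 genes were chosen with earlier results of these data known, so these counts are not independent of that choice. The median log2 fold change (Ang II over saline) of the 9 was 0.00, as over all genes (0.00). DESeq2 called 0 of the 9 where it called 0.205% of all genes, and limma-voom called 0 of the 9 where it called 0.831%.

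**Figure D2:**
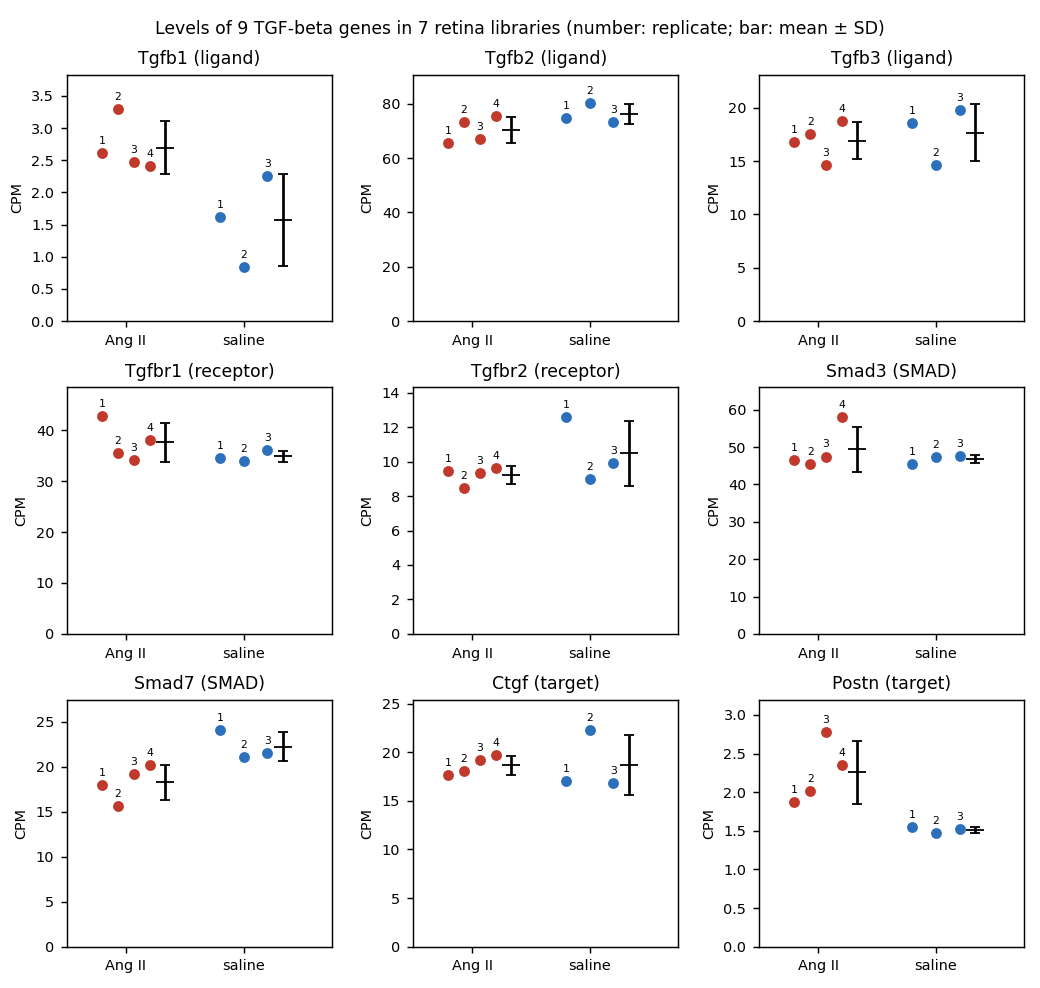
Level of each TGF-beta gene in CPM in each library, Ang II (red) left of saline (blue), with the replicate number above each point and the mean ± SD (n = 4 and n = 3) as a bar. All 4 Ang II libraries lie above the saline range for Tgfb1 and Postn and below it for Smad7, and the other 6 genes overlap between the groups.

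Among the ligands, the scarce Tgfb1 lay higher in Ang II, and the abundant Tgfb2 and Tgfb3 differed little. Tgfb1 (ENSMUSG00000002603, chromosome 7, 25687002 to 25705077, mm10), whose product is the isoform best known in fibrosis and immune control, had 46, 54, 39 and 40 counts in Ang II replicates 1 to 4, against 26, 12 and 37 counts in saline replicates 1 to 3. These were 2.61, 3.30, 2.47 and 2.41 CPM in Ang II and 1.61, 0.841 and 2.26 CPM in saline. Every Ang II library was above every saline library, but saline replicate 3 came within a few reads of Ang II replicates 3 and 4, and saline replicate 2, the library with the fewest genes detected, was far below the rest. Ang II averaged 2.70 ± 0.410 CPM (SD, n = 4) and saline averaged 1.57 ± 0.711 CPM (SD, n = 3). That is a log2 fold change of 0.77 ± 0.34 (SE), or 1.70-fold with a 95% interval of 1.02 to 2.83, with an unadjusted p of 0.0413 and an edgeR adjusted p of 0.982. Counting error alone is wide here: the exact Poisson 95% interval of the 12 reads in saline replicate 2 is 6.20 to 21.0 reads, and that of the 37 reads in saline replicate 3 is 26.1 to 51.0, which takes in the counts of Ang II replicates 1, 3 and 4.

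Tgfb1 and the pigment epithelium markers varied together across libraries, with exceptions. Ang II replicate 4, with the least Rpe65 of the Ang II libraries, had the least Tgfb1 of them, and saline replicate 3 had the most of both among the saline libraries. Rpe65 was highest in Ang II replicate 3 but Tgfb1 in Ang II replicate 2, and saline replicate 2 had more Rpe65 than saline replicate 1 but less Tgfb1. Pearson's r between log2 CPM of Tgfb1 and the log2 sum of the 14 pigment epithelium markers was 0.86 over 7 libraries, and it was 0.82 with the sum of 10 microglia and macrophage markers, which was 64.1 to 74.7 CPM in Ang II and 56.5 to 66.1 CPM in saline. Both r pool the groups, between which Tgfb1 and the pigment epithelium sum did not overlap, so the group difference enters them. When the mean log2 CPM of the pigment epithelium markers, centred over the 7 libraries, was added to the edgeR model, the log2 fold change of Tgfb1 was 0.07 (adjusted p = 0.999). This covariate was 0.49, 0.72, 0.45 and 0.02 in Ang II replicates 1 to 4, against -0.78, -1.12 and 0.22 in saline replicates 1 to 3. It largely followed the groups, so the fit cannot separate it cleanly from treatment. The log2 fold change of Tgfb1 was 1.13 without saline replicate 3 (edgeR adjusted p = 0.421) and 0.47 without saline replicate 2 (adjusted p = 0.926). In none of these fits did Tgfb1 pass the threshold.

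**Figure D3:**
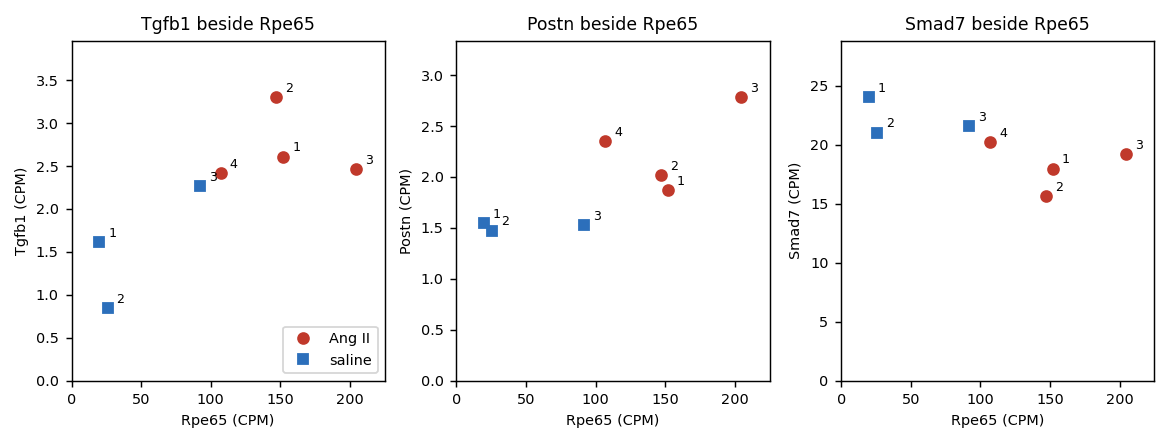
Levels of Tgfb1, Postn and Smad7 (CPM, vertical axes) beside Rpe65 (CPM, horizontal axis) in each library, Ang II as circles and saline as squares, with replicate numbers. Saline replicate 3, at 92.0 CPM of Rpe65, sits next to Ang II replicate 4 for Tgfb1 (2.26 CPM beside 2.41 CPM) but with the other saline libraries for Postn (1.53 CPM).

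Tgfb2 (ENSMUSG00000039239, chromosome 1, 186622792 to 186705989), the isoform of neural tissue and of the eye's fluids, had 65.6, 73.3, 66.9 and 75.5 CPM in Ang II replicates 1 to 4, against 74.8, 80.3 and 73.3 CPM in saline replicates 1 to 3. The groups met at about 73 to 75 CPM, where 1 Ang II library was above 2 saline libraries. Its log2 fold change was -0.11 ± 0.09 (edgeR adjusted p = 0.982), and the 95% interval of the fold, 0.809 to 1.06, leaves out a rise as large as that measured for Tgfb1. With the pigment epithelium covariate the log2 fold change of Tgfb2 was -0.02. Tgfb3 (ENSMUSG00000021253, chromosome 12, 86056745 to 86079041), the isoform known from palate closure, had 16.8, 17.5, 14.6 and 18.8 CPM in Ang II and 18.6, 14.7 and 19.8 CPM in saline. Both groups held a library near 14.6 CPM and another near 19 CPM. The log2 fold change of Tgfb3 was -0.06 ± 0.15 (edgeR adjusted p = 0.985), with a 95% interval of the fold of 0.772 to 1.19.

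The mix of ligand transcripts was set by Tgfb2 in every library. Per gene length, Tgfb2 made up 68.7% ± 1.38 of the 3 ligands in Ang II (SD, n = 4) and 70.4% ± 4.54 in saline (SD, n = 3). Tgfb3 made up 28.3% ± 1.42 in Ang II and 27.9% ± 3.84 in saline, and Tgfb1 made up 3.03% ± 0.421 in Ang II and 1.66% ± 0.730 in saline. By raw counts, the share of Tgfb1 ran from 2.50% (Wilson 95% interval 1.84 to 3.38) in Ang II replicate 4 to 3.51% (2.70 to 4.55) in Ang II replicate 2, against 0.879% (0.503 to 1.53) in saline replicate 2 to 2.37% (1.73 to 3.25) in saline replicate 3. The intervals, which cover counting error only, overlap between the highest saline and all 4 Ang II libraries.

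The receptor genes differed less than their libraries varied. Tgfbr1 (ENSMUSG00000007613, chromosome 4, 47353222 to 47414931), the type I receptor kinase, had 42.8, 35.4, 34.2 and 38.0 CPM in Ang II replicates 1 to 4, against 34.6, 33.9 and 36.1 CPM in saline replicates 1 to 3. Ang II replicates 1 and 4 were above all saline libraries and the other two lay among them. Its log2 fold change was 0.11 ± 0.11 (edgeR adjusted p = 0.982; 95% interval of the fold 0.920 to 1.26), and 0.04 without Ang II replicate 1. Tgfbr2 (ENSMUSG00000032440, chromosome 9, 116084293 to 116175360), the ligand-binding type II receptor, had 9.47, 8.49, 9.36 and 9.66 CPM in Ang II and 12.6, 8.97 and 9.90 CPM in saline. Saline replicate 1 was highest, and the other saline libraries bracketed 3 of the 4 Ang II libraries. Tgfbr2 had a log2 fold change of -0.18 ± 0.17 (edgeR adjusted p = 0.982), which was -0.03 without saline replicate 1 and -0.28 without saline replicate 2. Per gene length Tgfbr1 exceeded Tgfbr2 in all 7 libraries, by 5.10 ± 0.456 times in Ang II (SD, n = 4) and 4.25 ± 0.704 times in saline (SD, n = 3).

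Of the SMAD genes, Smad7 lay lower in Ang II and Smad3 differed little. Smad7 (ENSMUSG00000025880), the inhibitory SMAD that the pathway itself induces, had 18.0, 15.6, 19.2 and 20.2 CPM in Ang II replicates 1 to 4, against 24.0, 21.0 and 21.6 CPM in saline replicates 1 to 3. All 4 Ang II libraries were below all 3 saline libraries, by a narrow gap between Ang II replicate 4 and saline replicate 2. Ang II averaged 18.3 ± 1.97 CPM (SD, n = 4) and saline averaged 22.2 ± 1.60 CPM (SD, n = 3). That is a log2 fold change of -0.28 ± 0.13 (SE), or 0.822-fold with a 95% interval of 0.679 to 0.996, with an unadjusted p of 0.0459 and an edgeR adjusted p of 0.982. Its direction was the same in all 14 alternatives, with log2 fold changes of -0.43 (limma-voom, adjusted p = 0.0998) to -0.17 (pigment epithelium covariate, adjusted p = 0.999). Across the libraries Smad7 had r = -0.73 with the pigment epithelium sum, -0.615 with the microglia and macrophage sum and 0.45 with the rod sum. These r pool both groups, so the group difference enters them. The part of these cell types in the Smad7 values was not tested beyond that covariate.

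Smad3 (ENSMUSG00000032402, chromosome 9, 63646767 to 63757994), which carries the signal to target genes, had 46.4, 45.3, 47.5 and 58.2 CPM in Ang II replicates 1 to 4, against 45.6, 47.3 and 47.6 CPM in saline replicates 1 to 3. Ang II replicate 4 stood alone, and the other 6 libraries lay within 45.3 to 47.6 CPM. The log2 fold change was 0.08 ± 0.10 (edgeR adjusted p = 0.983), and -0.01 without Ang II replicate 4. Per gene length, the ratio of Smad3 to Smad7 was 2.11, 2.36, 2.02 and 2.35 in Ang II replicates 1 to 4, against 1.55, 1.84 and 1.80 in saline replicates 1 to 3. The groups did not overlap, but the ratio rests on the same Smad7 values. Smad7 and Tgfbr2 were the most alike of the 36 pairs of members, with r = 0.79 over 7 libraries, and Tgfb3 and Ctgf the least, with r = -0.69.

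The target genes gave different pictures, with Ctgf level between the groups and Postn higher in Ang II. Ctgf (ENSMUSG00000019997, chromosome 10, 24595442 to 24598683), which encodes a secreted matrix protein of scarring tissue, had 17.7, 18.0, 19.2 and 19.7 CPM in Ang II replicates 1 to 4, against 17.0, 22.3 and 16.8 CPM in saline replicates 1 to 3. The Ang II libraries lay between the saline ones. The log2 fold change of Ctgf was 0.00 ± 0.14 (edgeR adjusted p = 0.997), and the 95% interval of the fold was 0.815 to 1.22. It was 0.23 with the pigment epithelium covariate and 0.14 without saline replicate 2. Of its exon bases in GENCODE M21, 23.2% overlap the opposite-strand transcript Gm15270, which had 23 counts in all against 2105 for Ctgf, and the library kit did not mark strand.

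Postn (ENSMUSG00000027750, chromosome 3, 54361109 to 54391037), which encodes the matrix protein periostin, had 33, 33, 44 and 39 counts in Ang II replicates 1 to 4, against 25, 21 and 25 counts in saline replicates 1 to 3. These were 1.87, 2.02, 2.78 and 2.35 CPM in Ang II and 1.55, 1.47 and 1.53 CPM in saline. The saline libraries were nearly equal and all 4 Ang II libraries were above them, with Ang II replicate 3 highest. Counting error alone is wide here too. The exact Poisson 95% interval of the 25 reads in saline replicates 1 and 3 is 16.2 to 36.9 reads, which takes in the 33 reads of Ang II replicates 1 and 2. Ang II averaged 2.26 ± 0.405 CPM (SD, n = 4) and saline averaged 1.52 ± 0.0396 CPM (SD, n = 3). That is a log2 fold change of 0.57 ± 0.31 (SE), or 1.48-fold with a 95% interval of 0.941 to 2.34, with an unadjusted p of 0.0845 and an edgeR adjusted p of 0.982. Its log2 fold change was 0.62 with the pigment epithelium covariate and 0.46 without Ang II replicate 3, the library with high Gfap and high skeletal muscle markers. Across the 7 libraries Postn had r = -0.97 with the summed rod markers, 0.86 with the microglia and macrophage sum and 0.78 with the pigment epithelium sum. These r pool both groups. Postn, the rod sum and the pigment epithelium sum did not overlap between groups, so the group difference enters them. The part of these cell types, and of muscle, in the Postn values was not tested beyond that covariate.

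**Figure D4:**
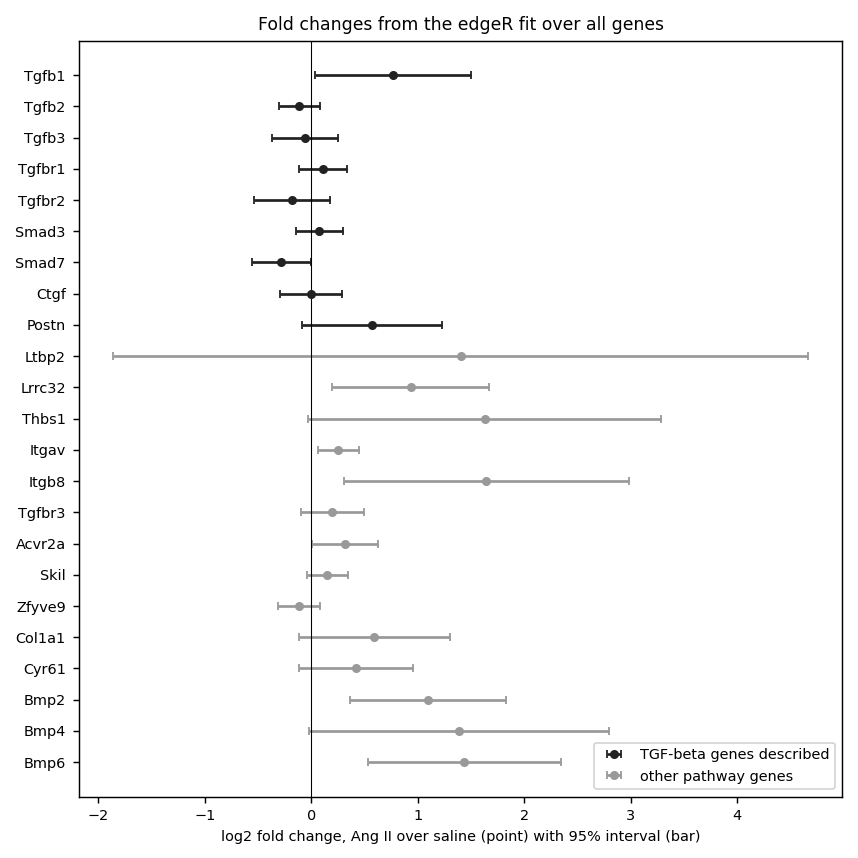
log2 fold changes of Ang II over saline from the edgeR fit (points) with 95% intervals (bars) for the 9 TGF-beta genes (black) and 14 other pathway genes named in the text (grey). Of the 9, Tgfb1 (lower end 0.03) and Smad7 (upper end -0.01) have intervals that leave out 0, and no gene shown passed the adjusted threshold.

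The wider pathway was read from 65 other genes, of which 58 were tested. With edgeR 0 of them were called, 0 higher and 0 lower, and 7 had an unadjusted p under 0.05, beside 4.62% of all genes. DESeq2 called 1 of the 58 (Bmp6), beside 0.205% of all genes, and limma-voom 5 (Thbs1, Itgav, Itgb8, Bmp4 and Bmp6), beside 0.831%, all higher. The limma-voom quality weight was 3.33 for saline replicate 1, against 0.430 and 0.632 for saline replicates 2 and 3. The saline side of the limma-voom calls thus rests mostly on saline replicate 1, the library with the least Rpe65. In direction 44 of the 58 lay above 0 and 14 below, with a median log2 fold change of 0.09, while 48.9% of all genes tested lay above 0 with a median of 0.00. The list was written with earlier results of these data known, so its counts are not independent of that choice. The count above 0 was 36 of 58 with the pigment epithelium covariate, where the median was 0.07. It was 41 of 58 without saline replicate 3, where the median was 0.16, as it was without Ang II replicate 1. Without Ang II replicate 2 the count was 37 of 56, with a median of 0.06. Groups without overlap were found in 6 of the 58, all higher, beside 3.18% higher and 2.73% lower among all genes.

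Genes of latency and activation, which hold and free the ligands, had 10 of 12 tested members above 0 and a median log2 fold change of 0.29. Lrrc32, which encodes a cell-surface anchor of latent TGF-beta, averaged 2.10 ± 0.446 CPM in Ang II (SD, n = 4) and 1.10 ± 0.212 CPM in saline (SD, n = 3), with a log2 fold change of 0.93 ± 0.35. With the pigment epithelium covariate the log2 fold change of Lrrc32 was larger, at 1.385. Itgav, the alpha-v integrin gene, was at 102.9 ± 7.54 CPM in Ang II and 86.5 ± 6.02 CPM in saline (0.25 ± 0.09; limma-voom adjusted p = 0.0487), and its log2 fold change was 0.13 with the pigment epithelium covariate. In both genes 4 of 4 Ang II libraries were above the saline range, with an edgeR adjusted p of 0.982. The larger differences were in 2 activator genes chosen after their values were seen. Itgb8, a partner subunit of alpha-v that can free some TGF-beta isoforms, was at 73.6, 87.0, 183.7 and 73.4 CPM in Ang II replicates 1 to 4, against 20.8, 27.6 and 51.6 CPM in saline replicates 1 to 3. The groups did not overlap, and saline replicate 3 was again the highest saline library. Ang II replicate 3, the highest of all, is the library with high Gfap and skeletal muscle markers. Its log2 fold change was 1.64 ± 0.53 (edgeR adjusted p = 0.982, limma-voom adjusted p = 0.00422) and 0.99 with the pigment epithelium covariate. Thbs1, the thrombospondin gene, was at 67.8, 41.2, 86.2 and 33.1 CPM in Ang II, against 8.73, 11.4 and 35.1 CPM in saline. Saline replicate 3 was above Ang II replicate 4, so the groups overlapped. The log2 fold change of Thbs1 was 1.63 ± 0.65 (edgeR adjusted p = 0.982, limma-voom adjusted p = 0.00960) and 0.58 with that covariate. It was 2.51 without saline replicate 3 and 1.29 without saline replicate 1. With the covariate 7 of the 12 genes of this role lay above 0, with a median of 0.05, and without Ang II replicate 2 the median was 0.06.

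The other receptors and the SMAD machinery differed little. Among 11 receptor and co-receptor genes 8 lay above 0, with a median log2 fold change of 0.09, and the smallest p were those of the activin receptor gene Acvr2a (51.9 ± 7.47 CPM in Ang II, 41.7 ± 8.64 CPM in saline, 0.32 ± 0.14) and of the betaglycan gene Tgfbr3 (16.6 ± 1.94 CPM in Ang II, 14.5 ± 0.656 CPM in saline, 0.20 ± 0.14), both with an edgeR adjusted p of 0.982. Acvr2a had a log2 fold change of 0.50 without saline replicate 2, and Tgfbr3 had one of 0.12 without Ang II replicate 2. With the pigment epithelium covariate the log2 fold change was 0.43 for Acvr2a and 0.15 for Tgfbr3. Among 13 other SMADs and SMAD regulators 6 lay above 0 and 7 below, with fold changes between -0.12 and 0.28 and a median of 0.00. Skil, a SMAD co-repressor gene that the pathway induces, was at 61.0 ± 3.60 CPM in Ang II and 55.0 ± 0.836 CPM in saline (0.15 ± 0.09), with 4 of 4 Ang II libraries above the saline range. Zfyve9, which encodes a SMAD anchor protein, was at 96.2 ± 3.74 CPM in Ang II and 104.5 ± 12.4 CPM in saline (-0.12 ± 0.09), a difference that was -0.02 without saline replicate 2. Their edgeR adjusted p were 0.982.

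Other target and matrix genes had 10 of 11 tested members above 0 and a median log2 fold change of 0.37, at mostly low levels. The collagen gene Col1a1 was at 2.50 ± 0.685 CPM in Ang II and 1.67 ± 0.440 CPM in saline (0.59 ± 0.33), and Cyr61, a relative of Ctgf, was at 5.76 ± 0.920 CPM in Ang II and 4.32 ± 1.40 CPM in saline (0.42 ± 0.25), both with an edgeR adjusted p of 0.982 and with overlapping groups. Cyr61 had a log2 fold change of 0.22 without saline replicate 1 and 0.69 without saline replicate 2. With the pigment epithelium covariate the log2 fold changes of both genes were larger, at 0.865 for Col1a1 and 0.50 for Cyr61, unlike the list as a whole. The count above 0 was 4 of 11 with the pigment epithelium covariate, where the median was -0.07, and 6 of 9 without Ang II replicate 2, the library with high lens markers, where it was 0.10. Without saline replicate 1 the median was 0.22. Fibroblast markers of choroid or sclera, 3 of which are also in this list, summed to 53.1 to 72.0 CPM in Ang II and 46.0 to 58.1 CPM in saline, and 6 of their 7 tested members lay above 0. Their part in the matrix values was not tested.

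Related ligands and their inhibitors had 10 of 11 tested members above 0 and a median log2 fold change of 0.46, which was 0.23 without Ang II replicate 3 and 0.24 without saline replicate 2. Bmp6, a bone morphogenetic protein gene, was at 7.49, 6.48, 13.0 and 4.41 CPM in Ang II replicates 1 to 4, against 1.61, 2.66 and 4.40 CPM in saline replicates 1 to 3. Ang II replicate 4 and saline replicate 3 were all but equal, which are also the Ang II library lowest and the saline library highest in Rpe65. The log2 fold change of Bmp6 was 1.43 ± 0.41 (edgeR adjusted p = 0.982), with an adjusted p of 0.0347 by DESeq2 and 0.0260 by limma-voom, and it was 0.72 with the pigment epithelium covariate (edgeR adjusted p = 0.999). Bmp2 was at 3.85 ± 1.73 CPM in Ang II and 1.79 ± 0.267 CPM in saline (1.10 ± 0.34, edgeR adjusted p = 0.982), with 4 of 4 Ang II libraries above the saline range. Its log2 fold change was 0.50 with that covariate and 0.76 without Ang II replicate 2, the library with high lens markers. Bmp4, chosen after its values were seen, was at 7.37, 3.85, 4.68 and 6.88 CPM in Ang II, against 0.867, 0.841 and 4.77 CPM in saline. Saline replicate 3 was above 2 of the Ang II libraries. The log2 fold change of Bmp4 was 1.38 ± 0.61 (edgeR adjusted p = 0.982) and 2.73 without saline replicate 3 (edgeR adjusted p = 0.000832), a fit in which 0.667% of 17553 genes were called and 0 of the 9 members were. It was 0.56 with the pigment epithelium covariate, 1.004 without saline replicate 1 and 1.012 without saline replicate 2.

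Genes with the most similar profiles over the 7 libraries, by Pearson's r of log2 CPM among 13335 other genes of at least 1 CPM, were Palmd (0.99) and B4galt5 (0.98) for Tgfb1, Lnx1 (0.98) and Plxna1 (0.98) for Tgfb2, and Pak6 (0.996) and Cln8 (0.99) for Tgfb3. For Ctgf they were Zfp433 (0.99) and Dgcr8 (0.97), and for Postn they were Med1 (0.98) and Efcab2 (0.97). The best of so many genes over 7 libraries will reach such values readily, and between 3 (Ctgf) and 25 (Tgfb1) genes had r over 0.95.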

How the data were processed

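Poly-A selected RNA of 4 Ang II and 3 saline retina libraries was sequenced, per the labels' protocols, with random-hexamer cDNA and no step that marks strand. The deposited values are whole-number counts per gene, not normalized by the authors. The submitters' processing notes name CASAVA, HISAT2 2.0.5, featureCounts 1.5.0-p3 and mm10. For annotation release and counting rules, the sources used here give nothing. Columns were matched by sample description, and groups follow titles.

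Genes were kept by filterByExpr, scaled by TMM and tested with edgeR 4.0.16 (robust quasi-likelihood, two-sided, group as sole term, R 4.3.3). P-values were adjusted over all genes by Benjamini-Hochberg, with 0.05 as the threshold. SE is the size of the log2 fold change divided by the root of F, and 95% intervals use the moderated degrees of freedom. CPM uses TMM-scaled library sizes, and log2 CPM a prior count of 2. Alternatives used DESeq2 1.42.0, limma-voom 3.58.1 with quality weights, other scalings and filters, a pigment epithelium covariate and each library left out. The covariate largely followed the groups, so for every gene the fit with it cannot separate it cleanly from treatment. The steps were tested on simulated data. Same-numbered replicates were not treated as pairs. Members and lists were chosen with earlier results of these data known. Named genes are the members, the 2 pathway genes of smallest p in each role, and 4 chosen after their values were seen (Thbs1, Itgb8, Ltbp2, Bmp4). The 2 genes most like each of 5 members (Tgfb1, Tgfb2, Tgfb3, Ctgf and Postn) are named too. A listed rod marker is not reported here and was left out of the rod sum. Shares and floors cover counting error only.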

Additional observations from a re-analysis of the deposited data

Results flagged for a closer look

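Of 23 named genes, 3 had 1 Ang II library far from the other 3 by Dixon's gap test, and chance flags about 1 in 20 groups. Itgb8 and Ltbp2 are among the 4 genes chosen after their values were seen, so that rate does not hold for them. Smad3 reached 58.17 CPM in Ang II replicate 4, against 45.34 to 47.48 CPM in the other Ang II libraries. Itgb8 reached 183.7 CPM in Ang II replicate 3, the library with high Gfap and high skeletal muscle markers, against 73.44 to 87.02 CPM in the other Ang II libraries. Ltbp2, a latent TGF-beta binding protein gene, reached 9.533 CPM in Ang II replicate 2, the library with high lens markers, against 0.181 to 1.077 CPM in the other Ang II libraries. The part of glial, muscle or lens RNA in these values was not tested.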

How the results depend on the processing

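In all 14 alternatives 0 of the 9 members were called. Tgfb1, Tgfb2, Tgfbr1, Tgfbr2, Smad7 and Postn kept their direction in all 14, and 13 of 126 values of members turned, the farthest to 0.23 (Ctgf with the pigment epithelium covariate). Over all genes, edgeR called 0, while DESeq2 called 35, limma-voom 142, the fit without a filter on low counts 98, and the replicate block on libraries 1 to 3 of each group 57. Fits without 1 library called 0 to 117, with the 117 from leaving out saline replicate 3. The labels state no pairing, and deviations of same-numbered libraries had r of -0.07, -0.02 and 0.05. So few libraries cannot exclude a pairing. On the libraries of the block, edgeR without the block (the fit without Ang II replicate 4) called 0 genes. The block called 2 of the 58 pathway genes (Itgb8 and Bmp6), and the fit without a filter 2 (Bmp6 and Nog). For members the block gave Smad3 -0.0110, Tgfb1 0.87, Smad7 -0.34 and Postn 0.53, with edgeR adjusted p of 0.987, 0.647, 0.593 and 0.789.

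Ctgf (0.00) turned to 0.000923 with RLE size factors, 0.0448 with library size alone, 0.00451 without a filter, 0.00168 with DESeq2, 0.0720 with limma-voom and 0.23 with the pigment epithelium covariate. With that covariate Zfyve9 was at 0.0239 and Ltbp2 at -0.93. With 1 library left out, Ctgf ranged from -0.0679 to 0.14, Tgfb3 from -0.18 to 0.0340, Smad3 from -0.0113 to 0.11 and Ltbp2 from -0.58 to 1.80. The cause of these turns was not tested. Scaling by library size moved the median of all genes to 0.04. At 12 to 54 reads per library, Tgfb1 and Postn are limited by depth.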
